A study of Mus musculus with 28 samples.

Results

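Nodal, Lefty1, Lefty2 and Tdgf1 encode the ligand, the inhibitors and the coreceptor of one signalling pathway, and they were followed here in fetal mouse germ cells. They were chosen by gene name and are 4 of the 22138 genes in each of the RNA and promoter tables. Nodal is a secreted ligand of the TGF-beta family that signals through activin receptors and the transducers SMAD2 and SMAD3, with FOXH1 as a DNA-binding partner. Tdgf1 (Cripto) encodes the membrane coreceptor that Nodal needs, while Lefty1 and Lefty2 encode secreted inhibitors that the pathway itself switches on, so that they serve as readouts of its activity. In the fetal testis the pathway is known to act in germ cells around the time of sex determination, when it goes along with the upkeep of pluripotency genes and precedes male differentiation.

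The cells were primordial germ cells (PGCs), from which gametes later form, sorted from E13.5 gonads by flow cytometry as SSEA1+ cells. The Setdb1 cross, on the gene of an H3K9 methyltransferase, gave wild type (Setdb1 flox/+), Het1 (delta/+), Het2 (flox/-) and KO (delta/-) in each sex. RNA-seq covered 1 wild-type, 2 Het1, 2 Het2 and 2 KO libraries per sex, and 1 PGC and 1 SSEA1- soma library from male C57BL/6 gonads. ChIP-seq for H3K27me3 and H3K9me3 had 1 library per sex for Het (flox/-) and for KO, with 1 further H3K9me3 library from male C57BL/6 soma. The labels used here name neither the Cre that made the delta allele nor the number of embryos behind a library, so p-values measure the spread between libraries, which may be technical. In bulk libraries fewer expressing cells and less RNA per cell cannot be told apart.

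The RNA libraries listed 15114 to 17371 genes above 0. Of the 6 listed germ cell markers 5 were in the table under these names, and their summed RPKM (reads per kilobase of gene, scaled to library size) was 962.88 or more in every germ cell library of the cross against 12.11 in soma. Setdb1 itself was at 27.11 and 31.20 RPKM in the male KO libraries and 37.53 to 52.05 in male Het, and at 34.65 and 31.28 in female KO and 38.24 to 58.89 in female Het. The KO libraries were the lower ones in each sex, but neither difference passed the threshold (limma adjusted p = 0.322 in males and 0.337 in females). Male Het1 replicate 1 and female Het2 replicate 1 stood apart from the other Het libraries of their sex on the second principal component. Results are therefore also given without them, a choice made after the values were seen. On that component KO replicate 1 lay at the same end in males (25.3 against 29.8) and females (25.6 against 24.3). Replicate 1 lay above replicate 2 in each group, and leaving out these Het libraries keeps KO replicate 1.

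The set of RefSeq promoter sequences used here held 2 of the 4 genes, Nodal and Tdgf1. The 250 bases before the transcription start are shown because these 2 promoters lie in windows where histone marks were measured and their genes had the same sex difference. They are at chr10:61417722-61417971 on the plus strand (Nodal) and chr9:110946159-110946408 on the minus strand (Tdgf1) of GRCm38.p6, and capitals mark matches to AATNNACA, the FOXH1 motif.
Nodal: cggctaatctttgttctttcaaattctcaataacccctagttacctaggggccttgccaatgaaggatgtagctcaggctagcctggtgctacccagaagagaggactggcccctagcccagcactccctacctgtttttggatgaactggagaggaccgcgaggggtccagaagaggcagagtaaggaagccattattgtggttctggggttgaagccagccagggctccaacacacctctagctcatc
Tdgf1: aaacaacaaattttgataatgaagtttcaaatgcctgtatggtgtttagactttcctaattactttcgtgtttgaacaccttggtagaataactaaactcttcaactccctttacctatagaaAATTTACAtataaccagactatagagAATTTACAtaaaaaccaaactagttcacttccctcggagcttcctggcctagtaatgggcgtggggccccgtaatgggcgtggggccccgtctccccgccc
The Tdgf1 sequence held 2 matches to AATNNACA, starting at -127 and -101 from the transcription start, and the Nodal sequence held 0, with both strands searched. Of 32851 RefSeq promoters of this length 10.93% held at least 1. The SMAD motif CAGAC occurred 1 time in Tdgf1, at -113 between these matches, and 0 times in Nodal, against 42.19% of promoters. The octamer motif ATTTGCAT, bound by OCT4, was in neither sequence (1.6% of promoters). Nodal had 3 CpG dinucleotides and Tdgf1 had 7, around the median of 6. These are letter matches in short windows and no record of binding.

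The first comparison asked how the genes differ between male and female germ cells of the control genotype. All 4 were expressed in every male germ cell library. In female Het and wild-type libraries Tdgf1, Lefty1 and Lefty2 were at 1.01 RPKM or less, while Nodal was low but reached 2.14 RPKM. Lefty2 had the largest difference of all 13518 genes tested towards lower levels in females, Lefty1 was next, and Nodal and Tdgf1 were at ranks 12 and 14. The values per library come first, then the test.

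Nodal, the ligand, was at 21.66 and 27.52 RPKM in male Het1, 19.71 and 30.11 in male Het2 and 30.12 in male wild type. In females it was at 2.14 and 1.70 in Het1, 0.20 and 1.94 in Het2 and 1.64 in wild type. The groups did not overlap, and Nodal was the one gene of the 4 that reached 1 RPKM in most female Het libraries. Female Het2 replicate 1 was the low one at 0.20.

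Tdgf1, the coreceptor, was at 8.12 and 14.63 RPKM in male Het1, 10.60 and 8.97 in male Het2 and 13.60 in male wild type. Its female values were 0.18 and 0.00 in Het1, 0.00 and 0.26 in Het2 and 0.57 in wild type. The lowest male library was thus far above the highest female one.

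Lefty1, an inhibitor, was at 73.00 and 62.69 RPKM in male Het1, 73.16 and 55.60 in male Het2 and 43.36 in male wild type. Its female values were 0.13 and 0.00 in Het1, 0.00 and 0.43 in Het2 and 0.04 in wild type. The male wild-type library lay below all 4 male Het libraries. Lefty2, its close relative, was at 79.35 and 161.71 RPKM in male Het1, 142.16 and 174.34 in male Het2 and 185.09 in male wild type. Its female values were 0.25 and 0.10 in Het1, 0.00 and 0.32 in Het2 and 1.01 in wild type. Male Het1 replicate 1 was the lowest male library for Lefty2, and no male library overlapped a female one. The 2 Lefty genes are similar in sequence, and how reads that fit both were counted is not given in the sources used here.

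In male Het the RPKM order was Lefty2 (139 ± 42.2, SD, n = 4), Lefty1 (66.1 ± 8.55), Nodal (24.8 ± 4.88) and Tdgf1 (10.6 ± 2.89), and the ranges of neighbours in this order did not overlap. In female Het, Nodal was at 0.20 to 2.14 RPKM, and the ranges of Lefty2 (0.168 ± 0.145, SD, n = 4), Lefty1 (0.140 ± 0.203) and Tdgf1 (0.110 ± 0.131) overlapped one another. The inhibitors were thus above the ligand in males and below it in females, by means of the 4 Het libraries.

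On the log2(RPKM + 1) scale, which understates changes at low levels, the female minus male difference in Het was -6.86 for Lefty2 (SE 0.25, adjusted p = 3.41e-09) and -5.89 for Lefty1 (SE 0.18, adjusted p = 4.54e-10) by limma. It was -3.44 for Nodal (SE 0.29, adjusted p = 5.76e-06) and -3.36 for Tdgf1 (SE 0.19, adjusted p = 1.25e-07). Of all genes tested 14.3% were lower in females and 17.6% higher, with a median difference of 0.05. Lefty1, Lefty2 and Tdgf1 passed the filter on low values through their male libraries, so 4 of 4 is no support of its own. Without the 2 libraries that stood apart the differences were -7.03 (Lefty2), -5.78 (Lefty1), -3.18 (Nodal) and -3.42 (Tdgf1).

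**Figure D1:**
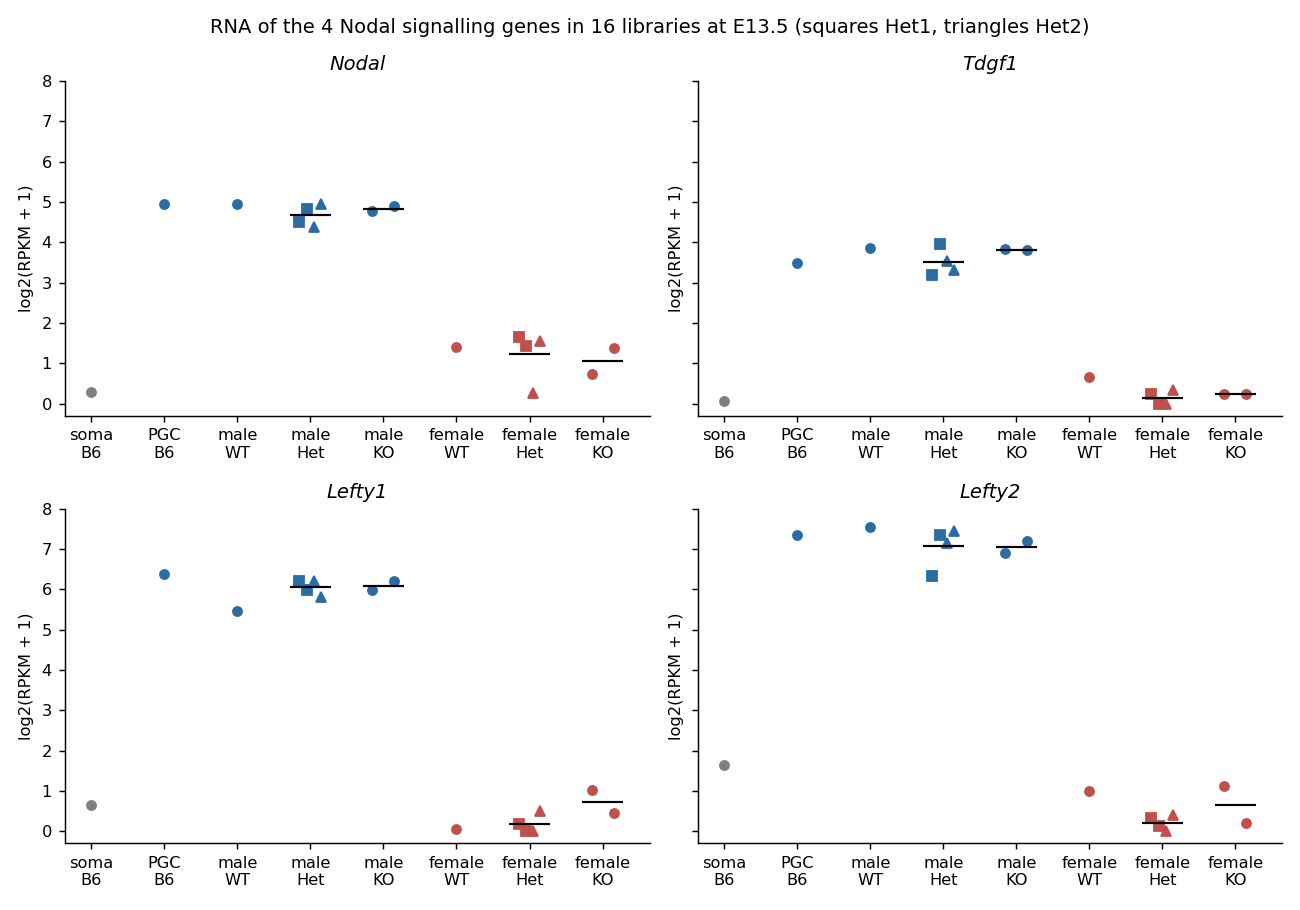
RNA of Nodal, Tdgf1, Lefty1 and Lefty2 as log2(RPKM + 1) in each of 16 libraries by group, with bars at the group means where a group has more than 1 library and squares and triangles for Het1 and Het2. In all 4 panels the male germ cell libraries lie above the female ones and above soma, with no overlap.

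The soma library asked whether these transcripts came from other gonadal cells. In male C57BL/6 gonads Nodal was at 29.82 RPKM in PGCs and 0.23 in soma, and Tdgf1 at 10.29 and 0.04. Lefty1 was at 82.70 and 0.57 and Lefty2 at 161.98 and 2.13. The log2 ratios with a pseudocount of 1 were 3.44 (Tdgf1), 4.65 (Nodal), 5.70 (Lefty2) and 5.74 (Lefty1), against 17.6% of genes past 2-fold in that direction. There was 1 library per cell type, so no test was made. Lefty2 was the only one of the 4 above 1 RPKM in soma.

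The pathway list reported here had 36 members beside these 4 genes, of which 34 could be tested. Of these 11 were lower and 5 higher in female Het, against 14.3% lower and 17.6% higher of all genes. The list's median difference was -0.12 against 0.05 for all genes. The same shares stand beside the counts by role and in the germ cell lists below. Lower and higher genes fell into different roles, as follows, which was not tested.

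Among the ligands and receptors, Gdf3, a relative of Nodal, was at 11.38 to 13.24 RPKM in male Het and 4.09 to 11.86 in female Het, and did not pass (log2 difference -0.53, adjusted p = 0.12). Inhba, which encodes an activin subunit, was higher in females (1.11 ± 0.264 against 0.445 ± 0.283 RPKM, n = 4 each, adjusted p = 0.0376). The activin receptor genes Acvr1b (log2 difference 0.33) and Acvr2b (-0.34), which Nodal uses, did not pass, with means of 9.89 and 28.6 RPKM in male Het and 12.9 and 22.9 in female Het. Tgfbr1, a type I receptor of TGF-beta, was higher in females (40.9 ± 11.8 against 19.8 ± 2.11 RPKM, adjusted p = 0.00153), as was Acvr2a. Cfc1, the other coreceptor of the family, was at 0.32 RPKM or less in all 8 Het libraries and was not tested. Both convertase genes that process the Nodal precursor were higher in females. Pcsk6 went from 5.64 ± 1.26 RPKM in male Het to 15.6 ± 2.58 in female Het (log2 difference 1.33, adjusted p = 1.90e-04).

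None of the 4 transducers passed. Smad2, Smad3 and Smad4 differed by 0.18, -0.09 and 0.04 on the log2 scale. Foxh1, the DNA-binding partner, was at 11.33, 34.90, 31.91 and 43.13 RPKM in male Het and 51.53, 30.33, 22.29 and 52.85 in female Het, so the ranges overlapped (adjusted p = 0.451). Foxh1 was at 41.61 RPKM in C57BL/6 PGCs and 0.20 in soma. Transcripts for the receptors and for signal transduction were therefore present in both sexes, while the ligand, coreceptor and Lefty transcripts were high in males.

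Several targets and inhibitors were lower in females. Of 6 listed targets beside the Lefty genes 4 were lower, namely Lhx1, Gsc, T and Eomes, transcription factor genes of the early embryo. Lhx1 was at 45.6 ± 15.1 RPKM in male Het and 18.5 ± 4.18 in female Het, whereas Gsc, T and Eomes averaged 1.43, 2.36 and 1.08 RPKM in male Het. Of 6 intracellular inhibitors 4 were lower, including the corepressor gene Tgif1 (28.5 ± 1.38 against 14.7 ± 0.241 RPKM, n = 4, adjusted p = 6.27e-05). No other reported gene of the list differed by more than 1.33 in size beside the 4 genes.

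**Figure D2:**
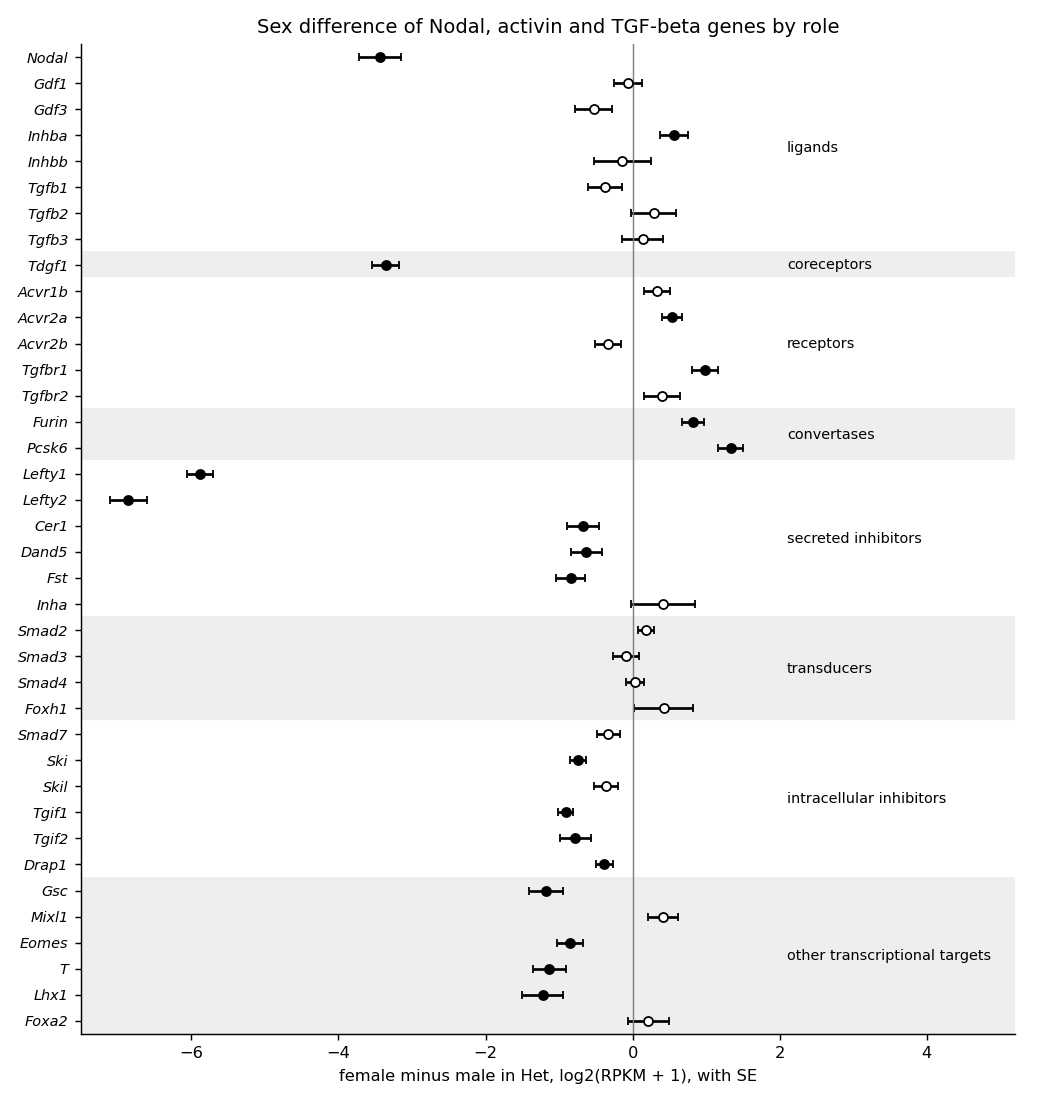
Female minus male difference in Het on the log2(RPKM + 1) scale, with SE, for the tested genes of the pathway list grouped by role, filled where the limma adjusted p is under 0.05. Lefty2, Lefty1, Nodal and Tdgf1 lie at -3.36 or lower, and the 4 transducers lie near 0 with open symbols.

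Germ cell state genes gave the setting of this sex difference. Stra8, the gene of meiotic entry, was at 73.35 to 322.76 RPKM in female Het and 0.00 to 2.30 in male Het, and 5 of 6 early meiotic genes were higher in females. Nanos2, a male germ cell fate gene, was at 57.60, 1.59, 9.05 and 1.96 RPKM in the male Het libraries and 0.00 in all 4 female ones (adjusted p = 0.0144). Of the 6 male fate genes 5 could be tested, and Nanos2 and Nanos3 (-1.36) were lower in females, while Piwil4 (-0.20), Tdrd9 (0.38) and Piwil2 (0.06) did not pass. Dnmt3l, which follows later in male germ cells, reached at most 1.23 RPKM in male Het. Of 6 pluripotency genes 3 were lower in females, among them Pou5f1 (187 ± 66.0 RPKM in male and 91.7 ± 44.4 in female Het, adjusted p = 0.0223). Sox2 (log2 difference -0.08) and Nanog (-1.23, adjusted p = 0.058) did not pass. Male Het1 replicate 1, the highest for Nanos2, was the lowest male Het library for Lefty2, Tdgf1 and Foxh1, but not for Nodal (21.66 RPKM) or Lefty1 (73.00 RPKM, the second highest). Female Het2 replicate 1, the highest for Stra8, was the lowest female Het library for Nodal. It also had the erythroid markers Hbb-b1 at 179.21 RPKM and Hba-a1 at 74.63, against 0.88 and 0.64 or less in the other female Het libraries. Female KO replicate 1 had Hbb-b1 at 28.46 RPKM. The part of the 2 Het libraries in the results was not tested beyond leaving them out.

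Genes beside the members were then compared, a choice made after the values were seen. In the RefSeq gene order (GRCm38.p6) Tmem63a follows Lefty1. Tmem63a, a membrane channel gene, was at 13.6 ± 1.88 RPKM in male Het and 0.865 ± 0.282 in female Het (n = 4 each, log2 difference -2.97, SE 0.16, adjusted p = 1.25e-07). It was at rank 23 among the genes lower in females, and was at 2.72 RPKM in soma. BC031781 (Sde2), before Lefty2, was lower by a small amount (-0.53, adjusted p = 0.00196), and H3f3a (-0.33) and Ephx1 (0.01) did not pass.

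Beside Nodal, X99384 (Pald1) was lower in females (23.3 ± 7.61 against 59.6 ± 22.8 RPKM, log2 difference -1.29, adjusted p = 0.00472), while Eif4ebp2 (-0.04) and Lrrc20 (0.15) on the other side did not pass. Beside Tdgf1, Lrrc2 was at 1.14 ± 0.284 RPKM in male Het and 0.045 ± 0.042 in female Het (log2 difference -1.03, adjusted p = 4.58e-04), and Als2cl did not pass (0.41, adjusted p = 0.0936). Whether reads were assigned by strand is not given in the sources used here, so reads of close or overlapping genes such as Tdgf1 and Lrrc2 cannot be told apart with certainty.

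**Figure D3:**
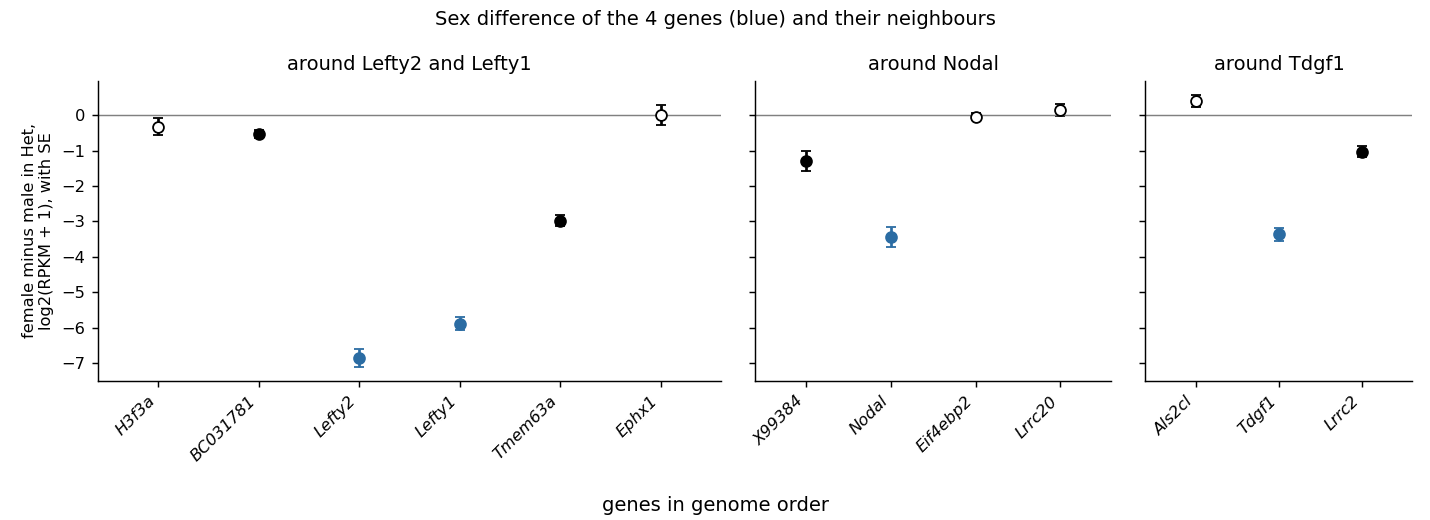
Female minus male difference in Het on the log2(RPKM + 1) scale, with SE, for the 4 genes (blue) and the reported neighbours among the 2 protein-coding genes on either side of each, in RefSeq order, filled where the adjusted p is under 0.05. Lefty2, Lefty1 and Tmem63a lie at -2.97 or lower, and BC031781, H3f3a and Ephx1 lie at -0.53 or higher.

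Likeness in expression was described across the 14 germ cell libraries of the cross after the mean of each sex was taken out, by Pearson r of log2(RPKM + 1). The 3 genes most like Nodal were Col9a1, L1td1 and Gng12 (r = 0.92 each). For Tdgf1 they were Eci2 (0.89), Slc43a3 (0.88) and Sp6 (0.85), for Lefty2 Acad8 (0.89), Rnmt (0.88) and Fam176a (0.87), and for Lefty1 Rab13 (0.83), 2700054A10Rik (0.83) and Rassf9 (0.82). None of these 12 was another of the 4 genes. Among the 4 themselves r was 0.59 for Lefty2 with Tdgf1, 0.38 for Nodal with Tdgf1, 0.19 for Nodal with Lefty2, 0.07 for Lefty1 with Lefty2, -0.09 for Lefty1 with Tdgf1 and -0.24 for Nodal with Lefty1. These are descriptions over few libraries that share depth and batch differences.

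The next comparison asked whether the loss of Setdb1 changed these genes. In male KO Nodal was at 26.61 and 28.65 RPKM, Tdgf1 at 13.16 and 13.01, Lefty1 at 61.82 and 73.48, and Lefty2 at 118.38 and 146.92. For Nodal, Tdgf1 and Lefty2 both values lay within the range of the 4 male Het libraries, and for Lefty1 the higher one was just above it. The KO minus Het difference was 0.17 for Nodal (95% interval -0.59 to 0.93), 0.31 for Tdgf1 (-0.18 to 0.81), 0.04 for Lefty1 (-0.44 to 0.51) and -0.02 for Lefty2 (-0.69 to 0.65), with an adjusted p of 1 for each by limma. By count 0 of the 4 passed, as against 0.614% of all genes (83), and at an unadjusted p under 0.05 there were 0 of the 4 and 615 overall. In males Leydig cell markers had a summed RPKM of 3.42 to 5.45 in Het and 29.17 and 66.76 in KO, and 5 of 6 rose. The sum was also above Het in male wild type (20.09) and in C57BL/6 PGCs (12.59). None of the 6 was at 0 in all male Het or all male KO libraries, and their part in these values was not tested.

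In female KO Nodal was at 0.65 and 1.62 RPKM, Tdgf1 at 0.17 in both libraries, Lefty1 at 1.02 and 0.37, and Lefty2 at 1.17 and 0.15. Lefty1 and Lefty2 were highest in female KO replicate 1, above all 4 female Het libraries, but the other KO library lay within the Het range. The differences were -0.17 for Nodal (95% interval -0.93 to 0.59), 0.08 for Tdgf1 (-0.41 to 0.58), 0.56 for Lefty1 (0.09 to 1.03) and 0.44 for Lefty2 (-0.23 to 1.12). By limma none passed, with an adjusted p of 0.309 for Lefty1, whose unadjusted p was 0.0234, and 0.624 or more for the others. Of all genes 0.407% (55) passed, and 1670 had an unadjusted p under 0.05. Without the 2 libraries that stood apart the count past the adjusted threshold went from 55 to 588. In that fit Lefty1 had the lowest limma adjusted p of the 4 genes (0.196).

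The effect in females less the effect in males was -0.34 for Nodal, -0.23 for Tdgf1, 0.52 for Lefty1 and 0.46 for Lefty2, with an adjusted p of 0.9998 each by limma, and 0 of 4 had an unadjusted p under 0.05. Of all genes 0.0518% (7) passed this test and 494 had an unadjusted p under 0.05. Of the other 34 pathway genes 0 passed in males and 2 rose in females. Inhba went from 1.11 ± 0.264 RPKM (n = 4) to 3.57 and 4.41 (log2 difference 1.25, adjusted p = 0.0388) and Tgif1 from 14.7 ± 0.241 to 25.22 and 26.91 (0.79, adjusted p = 0.0174). The female wild-type library lay between Het and KO for both, at 2.02 RPKM for Inhba and 21.19 for Tgif1. Inhba was at 23.28 RPKM in soma. In female KO the summed Sertoli markers were at 61.97 and 72.01 RPKM against 23.42 to 41.27 in female Het and 53.80 in female wild type, and 0 of 6 passed the KO test. Most of that sum was Cldn11 (42.47 and 36.40 in KO) and Fgf9 (23.30 and 18.49), whereas Amh and Dhh, defining Sertoli genes, were at 0.57 RPKM or less. Stromal markers summed to 34.79 and 49.27 against 13.34 to 35.33 in Het and 30.37 in wild type, and pregranulosa markers to 19.28 and 23.97 against 9.30 to 18.04 and 13.19. Of the 6 stromal and 5 pregranulosa markers tested 0 passed the KO test in females. Foxl2 (0.32 and 0.13 RPKM in KO) and Irx3 (7.63 and 5.39) did not exceed their Het ranges, while Lgr5, Fst, Wnt4 and Bmp2 had higher means in KO. The part of these cell types was not tested. Each of the 4 sex differences was larger in size than either bound of every KO interval above.

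**Figure D4:**
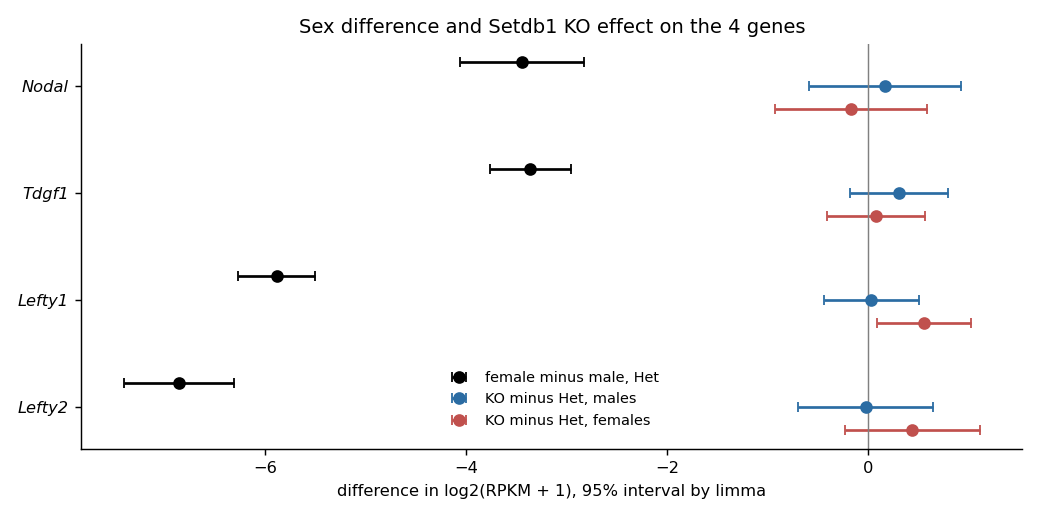
Difference on the log2(RPKM + 1) scale with its 95% interval by limma for the 4 genes, for female minus male in Het (black) and KO minus Het in males (blue) and females (red). All KO effects lie between -0.17 and 0.56, and all sex differences at -3.36 or lower.

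Histone marks at the 4 promoters were read as RPKM within 1 kb of either side of the transcription start. H3K27me3 is the Polycomb mark of repressed promoters, often found at developmental genes, and H3K9me3 is the mark that SETDB1 lays down. With 1 library per mark, sex and genotype there is no test, and the 95% Poisson intervals cover counting error only.

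Each of the 4 promoters had its lowest H3K27me3 level in male Het. Nodal was at 0.308 RPKM in male Het, 0.953 in male KO, 0.541 in female Het and 0.855 in female KO. Tdgf1 was at 0.439, 1.33, 0.801 and 1.27 in the same order. Lefty1 was at 0.272, 1.09, 1.09 and 0.959, and Lefty2 at 0.459, 0.907, 1.03 and 0.732. The 4 library medians were 0.254, 0.249, 0.296 and 0.269 RPKM. In male Het the 4 genes thus ranked above 52.1% to 67.9% of promoters, and in male KO above 86.5% to 94.2%.

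In males the KO to Het ratio, with 0.1 RPKM added to each value, was 2.58 for Nodal, 3.19 for Lefty1, 2.65 for Tdgf1 and 1.80 for Lefty2. The counting intervals of Het and KO did not overlap for any of them (Nodal 0.212 to 0.423 against 0.777 to 1.16). How many of all promoters this holds for was not counted. The planned rule asked for 2-fold in the same direction in both sexes at 1 RPKM or more. Of the 4 genes 0 met it, against 0.0556% of promoters in the lower direction and 0 of 1800 in the higher one. Nodal (0.953 RPKM at most) and Lefty2 (0.907) stayed under 1 RPKM in males, so neither could meet it. A rule for males alone at 0.5 RPKM, chosen after the values were seen, called 3 of 4, against 0.887% of promoters. These 3 reached 0.5 RPKM only through the KO library, so the count is no support of its own. In females the ratios were 1.49, 0.889, 1.52 and 0.740 for Nodal, Lefty1, Tdgf1 and Lefty2, and 0 of 4 were called at 0.5 RPKM, against 0.113% higher of all promoters. In male KO, where these promoters had more H3K27me3 than in Het, the RNA of the 4 genes differed from Het by no more than 0.31 on the log2 scale. The mark had 1 library per group, and its link to RNA was not tested.

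Between the sexes in Het, Lefty1 had a female to male H3K27me3 ratio of 3.20 and Lefty2 of 2.01, both past the planned 2-fold at 1 RPKM, as were 1.0% of promoters. The 2 passed this level only through the female library, so the count is no support of its own. The ratios of Nodal (1.57) and Tdgf1 (1.67) did not reach it. Between the sexes in KO the ratios of the 4 were 0.826 to 0.957, with 0 past 2-fold at the same 0.5 RPKM against 3.87% higher of all promoters. On the log2 scale these KO ratios were -0.28 to -0.06, against a median of -0.39 over all promoters at this level. The RNA of the 4 genes was not tested between the sexes in KO, and its link to the mark was not tested.

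H3K9me3 followed a similar order at low levels, and none of the 4 promoters reached 1 RPKM in a germ cell library. In male Het, male KO, female Het and female KO, Nodal was at 0.171, 0.521, 0.330 and 0.437 RPKM, and Tdgf1 at 0.195, 0.553, 0.354 and 0.635. Lefty1 was at 0.0760, 0.420, 0.530 and 0.338, and Lefty2 at 0.178, 0.281, 0.479 and 0.223. Again male Het was the lowest library for each of the 4. At 0.5 RPKM, a level also set after the values were seen, Nodal (ratio 2.29) and Tdgf1 (2.21) were past 2-fold in male KO over Het, as were 6.0% of promoters, and Lefty1 (3.58) was past it in female over male Het, as were 9.7%. Each of these reached 0.5 RPKM only through its higher library, so these counts are no support of their own. In soma the 4 were at 1.06 to 1.98 RPKM against a library median of 0.721. In males the H3K9me3 counting intervals of Het and KO did not overlap for Nodal, Lefty1 and Tdgf1, with KO higher. They did for Lefty2 (0.0980 to 0.300 against 0.182 to 0.422), and overlap was not counted over all promoters. In females KO was lower at Lefty2 (ratio 0.558, with intervals of 0.348 to 0.653 in Het and 0.145 to 0.337 in KO). It was also lower at Lefty1 (0.695) and higher at Nodal (1.25) and Tdgf1 (1.62), where the intervals overlapped for all 3. Over all promoters at 0.5 RPKM the median log2 ratio in females was -0.32, against -0.84 at Lefty2 and -0.52 at Lefty1. Male Het is 1 library for each mark, so its own deviation and an effect of genotype cannot be told apart.

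Other promoters gave a comparison within the same libraries. H3K27me3 at the Tmem63a promoter was at 0.456 RPKM in male Het, 0.864 in male KO, 1.54 in female Het and 1.16 in female KO. In the same order Lrrc2 was at 0.177, 0.465, 0.559 and 0.612. Foxh1, whose RNA did not pass between the sexes, was at 0.296, 0.824, 0.633 and 0.484. Male Het was thus the lowest library at these promoters too. It was the highest at Inhba (1.219, 1.065, 0.867 and 0.689) and Tgif1 (0.646, 0.252, 0.564 and 0.45).

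**Figure D5:**
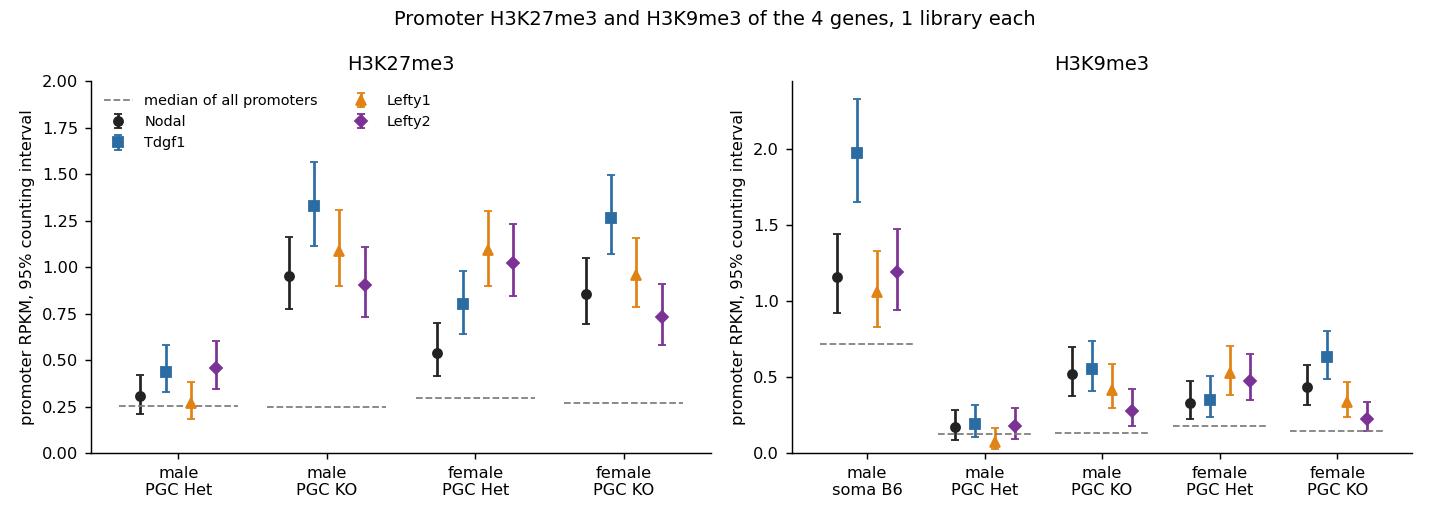
Promoter RPKM of H3K27me3 (left) and H3K9me3 (right) for the 4 genes in each library, with 95% counting intervals and the median of all promoters as a dashed line. In both panels the male Het values are the lowest of the germ cell libraries, at 0.272 to 0.459 RPKM for H3K27me3.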

How the data were processed

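RNA and ChIP values are RPKM, made by the authors and deposited as 2 tables, per the file headers. The submitters' processing notes name BWA, SAMtools and the build mm9, without versions, and how shared reads were counted is not given in the sources used here. RNA values are rounded to 0.01, so RNA depth is unknown. Promoter RPKM cover 1 kb on either side of the start. The most frequent step between low values put 1 read at 0.00869 to 0.0145 RPKM, with 43.8% to 55.2% of low values at whole reads within 0.0006. Counting intervals are therefore approximate, and cover counting error only.

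RNA was tested on log2(RPKM + 1) with limma 3.58.1 (lmFit, eBayes with trend, R 4.3.3) over 12 libraries as 4 group means (Het1 and Het2 pooled; wild type left out). Genes needed 1 RPKM in at least 2 libraries (13518), and p-values were two-sided and adjusted by Benjamini-Hochberg at 0.05. ChIP and soma were compared by fold with pseudocounts of 0.1 and 1. The fit was tested on simulated data. Alternatives changed the pseudocount, filter, scaling, controls, replicates and fold.

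The members and gene lists were chosen with earlier results of these data known. Named genes were the 4 members, up to 8 pathway genes past the threshold per contrast, fixed pathway and germ cell genes, Setdb1 and the 3 most alike genes. Some listed and neighbouring genes are not reported here. The repeat table, total H3 and DNA methylation are not analysed here.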

Additional observations from a re-analysis of the deposited data

Results flagged for a closer look

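Among the 4 Het libraries of a sex, 29 named genes were checked for a library far from the rest (by Dixon's gap over range at 95%), and 9 of 56 gene and sex groups met this, where chance gives about 1 in 20. None was one of the 4 Nodal signalling genes. In male Het1 replicate 1 Nanos2 (57.60 RPKM), Dnmt3l (1.23 RPKM) and Stra8 (2.30 RPKM) were far above the other male Het libraries and Smad4 (32.93 RPKM) below them. In female Het2 replicate 1 Lhx1 was far below (12.21 RPKM). Tgif1 was low in male Het2 replicate 1 (26.41 RPKM) and in female Het1 replicate 2 (14.32 RPKM). At the floor of the table, Cfc1 was above 0 in male Het2 replicate 2 alone of the male Het libraries (0.32 RPKM) and Gsc in female Het1 replicate 1 alone of the female ones (0.05 RPKM).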

How the results depend on the processing

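The sex difference of the 4 genes kept its direction and passed in all 22 alternative fits, at -9.16 to -6.61 for Lefty2, -8.46 to -5.76 for Lefty1, -5.87 to -3.20 for Tdgf1 and -4.29 to -3.12 for Nodal. No KO effect or difference of KO effects passed in any of them (lowest adjusted p = 0.196). Small KO effects changed sign: in males Lefty1 was -0.020 with median centring and -0.0053 with Het1 alone as control, and -0.086 to 0.16 when 1 library was left out, and Lefty2 was 0.22 with Het1 alone and -0.27 to 0.14 when 1 was left out. In females Tdgf1 was -0.058 with median centring, -0.073 with quantile normalization and -0.018 with wild type added, Nodal was 0.15 with Het2 alone and -0.50 to 0.16 when 1 library was left out, and Lefty2 was -0.013 to 0.90. The difference of effects for Tdgf1 was 0.26 with a pseudocount of 0.1. The cause was not tested.

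Same-numbered replicates deviated together (r over 0.1) in 14 of 15 pairs of groups, with r from -0.04 to 0.56. The labels used here do not say that they are pairs, and the main fit had no term for replicate number. A replicate block changed no call of the 4 genes (Lefty2 sex difference -6.86, adjusted p = 1.48e-08) and moved the genes called in female KO from 55 to 91. At the promoters, 1 of the 4 (Tdgf1) met 1.5-fold in both sexes for H3K27me3, just past it in females (ratio 1.52). The share of all promoters at 1.5-fold is not reported here, so this count is no support of its own. For 2-fold in males alone at 0.5 RPKM 3 of the 4 were called, against 0.887% of promoters. With a pseudocount of 1, 0 of the 4 passed between the sexes for H3K27me3, and at 0.5 RPKM 1 passed for H3K9me3. Other settings moved counts over all genes past 1.5 times: in males from 83 to between 29 and 185, in females from 55 to between 2 and 588, for the difference of effects from 7 to between 0 and 64, and for sex in Het from 4312 to 1159 with Het1 alone and 1449 with Het2 alone. Without male KO replicate 1 or 2 the male count was 29 or 36 and that for the difference 1 or 2, and the latter was 4 without female KO replicate 2. The female count was 3 or 5 without KO replicate 1 or 2, 95 or 18 without Het1 replicate 1 or 2, and 164 or 19 without Het2 replicate 1 or 2. It was 117 or 33 without male Het1 replicate 1 or 2, and 32 or 31 without male Het2 replicate 1 or 2, through the shared spread. Promoter counts moved to 0, 366 and 322 from 28 (H3K27me3 by sex, with a pseudocount of 1, 1.5-fold or 0.5 RPKM). RNA log2 ratios of PGC over soma were 6.18 to 6.95 with a pseudocount of 0.1. RNA depth is unknown, and female values near 0 limit the precision of any KO effect there.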
